A study of Drosophila melanogaster with 12 samples.

Results

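The male reproductive tract of polygamous Drosophila melanogaster was compared between 96 and 48 h of age. The comparison used 6 of the 12 RNA libraries of the study, those of polygamous populations 1, 2 and 3 at each age. Each population gave 1 library at 48 h and 1 at 96 h, and the age change was taken within populations. All populations, polygamous and monogamous, came from the same base population, labelled IV, and had evolved under their regime for 168 generations. In the polygamous regime 5 males were kept with 5 females, and in the monogamous regime 1 male was kept with 1 virgin female. The males sampled in either regime were virgins aged 48 or 96 h. A library pooled 30 tracts, each with accessory glands, testes and ejaculatory duct, so it mixes gland, germline, duct and sheath cells. A population is a separate evolving line, and no second pool of a line and age was made, so the spread between libraries covers lines and pools together.

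Most proteins of the seminal fluid come from the accessory gland. Its abundant main cells secrete sex peptide, ovulin and many protease inhibitors, and its rarer secondary cells secrete a different set of proteins. The gland matures and fills its lumen during the first days of adult life, while the testis goes on producing sperm. These proteins pass to the female at mating, where they stimulate ovulation, help sperm into storage and alter her behaviour. Virgin males do not empty the gland in this way.

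Gene counts summed to 33250881 to 39965341 per polygamous library, and the 96 h total was higher than the 48 h total in every population. Reads that the tables did not assign to a gene took 15.14% to 16.03% of all reads counted. The markers of main cells, secondary cells, duct, germline and muscle were detected at both ages. The marker genes alphaTry, betaTry, Jon65Aiii and Mal-A1 of the gut, Uro and Irk3 of the tubule, and elav, nSyb and Syt1 of neurons stayed at or under 4.5 CPM (counts scaled to the normalised library size) in each library. The first principal component of the 6 libraries held 33% of the variance and ordered the populations, and the second held 26.2% and was lower at 96 h in each population.

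Between 48 and 96 h, transcripts of secreted seminal proteins and of the machinery that exports them fell. Small rises were seen among regulators of the spermatocyte programme, meiotic genes and nucleolar genes. Of 12805 genes tested, 1907 (14.9%) changed, 773 upward (6.04%) and 1134 downward (8.86%), at a Benjamini-Hochberg adjusted p under 0.05 in edgeR's quasi-likelihood test. Most changes were small, with a median fold of 1.16 for the genes that rose and 1.24 for those that fell. Among genes that rose 67 reached 1.5-fold and 29 reached 2-fold, and among those that fell 234 and 102 did. The ages did not overlap, that is every 48 h value lay on one side of every 96 h value, for 3113 of the tested genes (24.3%). They did not overlap for 619 of the genes that rose and 922 of those that fell.

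The number of calls rested on the pairing and on how the spread was estimated. Without the population as block 485 genes were called, 100 up and 385 down, and 483 of them were among the 1907. With the spread estimated over all 12 libraries, 42 of 13156 genes were called (0.319%), 14 up and 28 down, and 41 of them were among the 1907. Of the lists below, those 42 held 4 Acp, Sfp and Mst57D genes, 2 odorant-binding protein genes, 1 duct and bulb gene and 1 fat body gene, all lower at 96 h, and no other list member. Without population 1 the count was 1036. DESeq2 called 879.

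**Figure D1:**
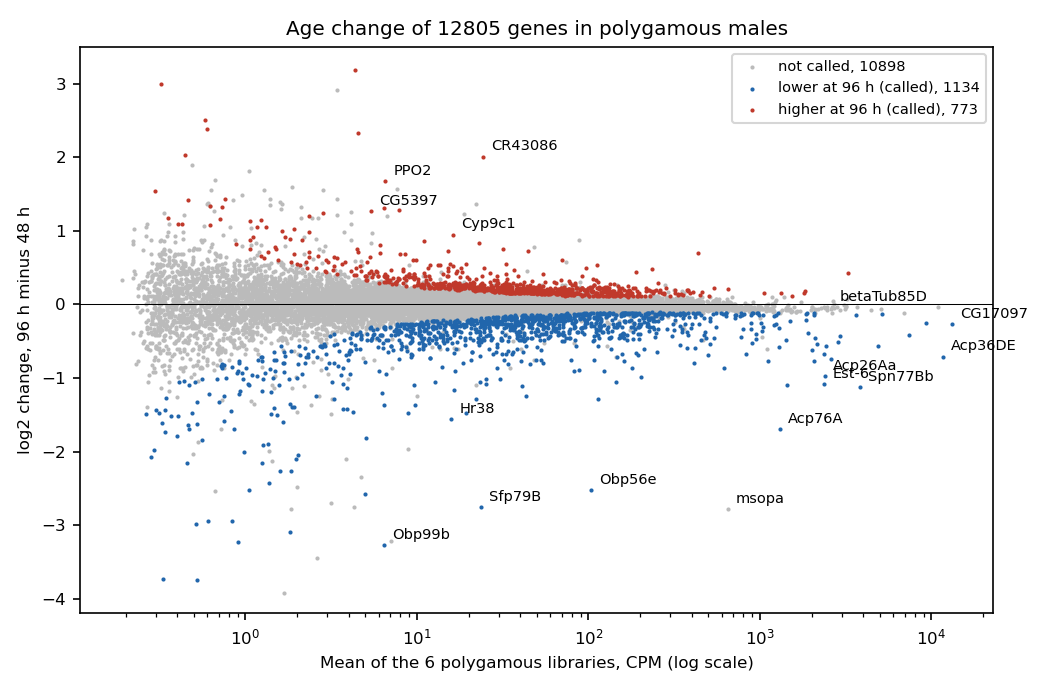
Mean level of each gene over the 6 polygamous libraries (CPM, log axis) against its log2 change from 48 to 96 h, with called genes in colour. Many of the labelled falls are seminal fluid genes of high level, such as Acp36DE and Acp76A, and the large rises lie at low levels. Fbp1, at -7.51, lies outside the axis.

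Seminal serpins and protease inhibitors, which hold back proteolysis in the ejaculate, fell most uniformly. Of 17 on the list 14 were tested, and all 14 fell, with a median log2 change of -0.65 against 0.00 over all genes. Acp76A (FBgn0015586, chromosome 3L, 19050757 to 19052026), a serpin, stood at 1838, 2089 and 2073 CPM in populations 1, 2 and 3 at 48 h and at 614, 617 and 625 CPM at 96 h. The ages were far apart, and the populations lay close together at each age. The fall was 3.23-fold (log2 change -1.69 ± 0.04, SE, adjusted p = 1.64e-12). Spn77Bb, another serpin, went from 5875, 4530 and 5259 CPM to 2784, 1939 and 2543 CPM, a fall of 2.17-fold (-1.12 ± 0.04, adjusted p = 3.43e-10). Population 2 had the lowest Spn77Bb at either age, and the ages did not overlap. The trypsin inhibitor gene Acp62F fell 2.13-fold (-1.09 ± 0.06), from 1946 ± 188 to 913 ± 29.8 CPM (SD, n = 3). Spn28F, Spn38F, Spn53F and Spn77Bc fell 1.70-, 1.67-, 1.75- and 1.47-fold. Together the list took 1.96%, 1.81% and 1.91% of gene counts at 48 h and 1.14%, 1.00% and 1.08% at 96 h. Leaving out 1 population at a time, 13 to 15 members fell, and 11 fell without the block.

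Other accessory gland proteins fell to a lesser degree. Of 44 tested genes named Acp, Sfp or Mst57D, 36 fell, 1 rose and 7 did not pass, with a median of -0.47. Acp62F, Acp63F and Acp76A were counted in this list and in that of the inhibitors. The list took 4.41%, 4.65% and 4.55% of gene counts at 48 h and 3.24%, 3.16% and 2.89% at 96 h, with no overlap between the ages. Acp63F fell 1.82-fold (-0.87 ± 0.03, adjusted p = 3.8e-10), Sfp93F 1.87-fold (-0.90 ± 0.04), Sfp24C1 1.70-fold (-0.76 ± 0.04) and Mst57Da, a small accessory gland peptide gene, 1.42-fold (-0.51 ± 0.04). Within the Acp53 cluster Acp53C14c fell 1.71-fold (-0.77 ± 0.05). Removing each population in turn left 32 to 37 members that fell, 29 fell without the block, and 4 fell with the spread of all 12 libraries.

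Genes for ovulation and sperm storage were among the most abundant transcripts that fell. Of 6 on that list 4 fell, 1 rose and 1 did not pass (median -0.74), and all but Semp1 were also in the list before. Acp26Aa (FBgn0002855, 2L, 5892883 to 5893896) encodes ovulin, which raises the ovulation rate of the mated female. It stood at 3186, 3267 and 3029 CPM at 48 h and at 1612, 1739 and 1484 CPM at 96 h, so every population was near the same level at each age. It fell 1.96-fold (-0.97 ± 0.04, adjusted p = 3.43e-10). Its neighbour Acp26Ab (2L, 5892298 to 5892862) was the list's member that rose, from 228, 261 and 240 CPM to 286, 290 and 261 CPM. The ages met at 261 CPM when rounded but did not overlap, and the rise was 1.15-fold (0.20 ± 0.04, adjusted p = 0.00451). Acp36DE (FBgn0011559, 2L, 18356047 to 18359028), which is needed for sperm to accumulate in the storage organs, went from 14753, 14267 and 14457 CPM to 9820, 8748 and 8022 CPM. The fall was 1.64-fold (-0.71 ± 0.05, adjusted p = 2.71e-07), and the ages were apart. Acp29AB, a lectin gene that acts in sperm retention, fell by 0.38 ± 0.04 on the log2 scale.

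Sex peptide itself gave no such change. SP (FBgn0003034, 3L, 13301635 to 13301922), whose product switches females to egg laying and refusal of remating, stood at 379, 574 and 403 CPM at 48 h and at 436, 436 and 362 CPM at 96 h. The ages overlapped, and the log2 change was -0.12 ± 0.16 (adjusted p = 0.740). Without population 1, in which SP was higher at 96 h, the change was -0.28 (adjusted p = 0.0117). Proteins of the sex peptide network are needed to keep the peptide on stored sperm, and 5 of 11 of their genes fell and 0 rose, with a median of -0.14. The protease homologue genes aqrs and CG9997, which lie side by side on 3R, fell 1.37-fold (-0.45 ± 0.03) and 1.35-fold (-0.44 ± 0.04), and Sems fell 1.19-fold (-0.25 ± 0.04).

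**Figure D2:**
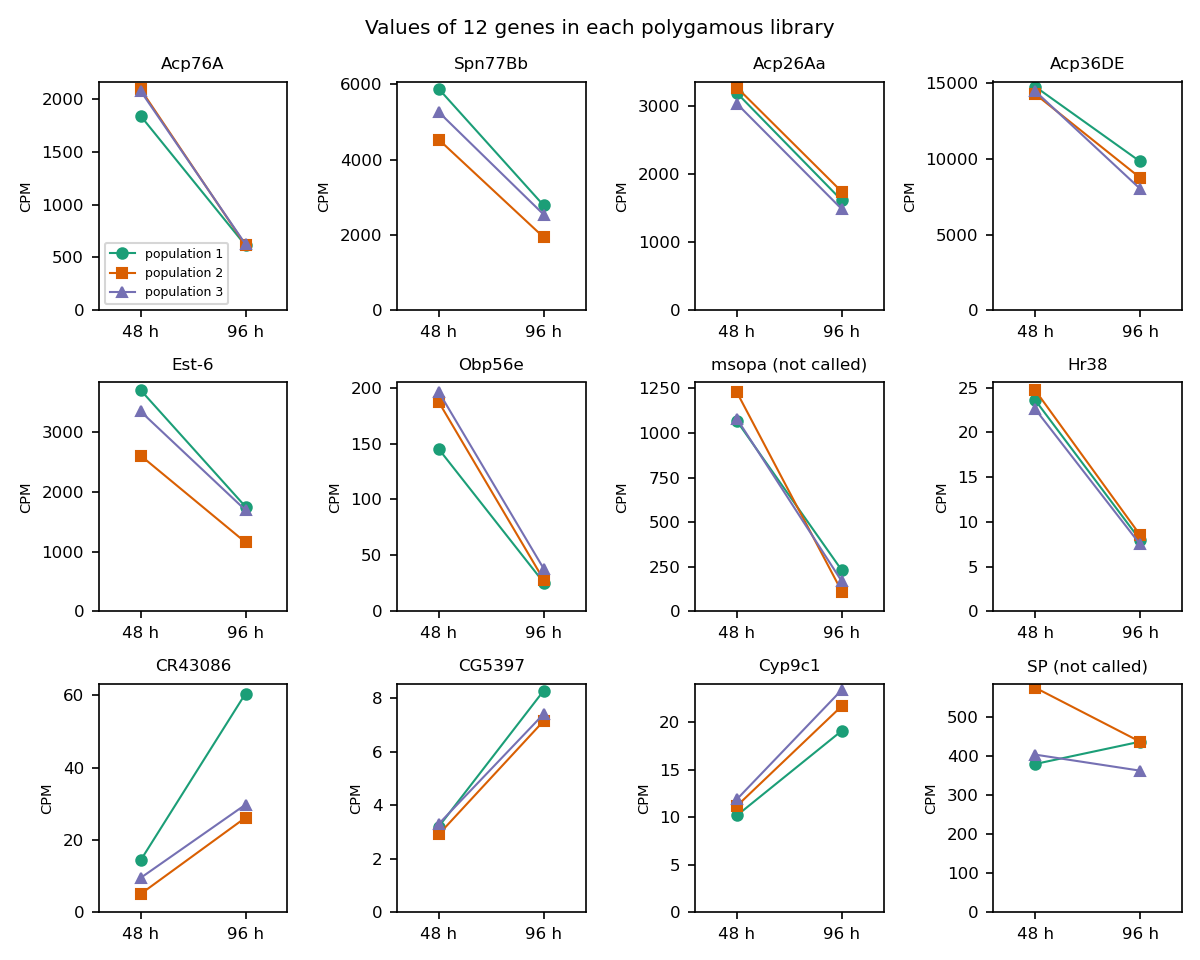
CPM of 12 genes in each library (vertical axes, from 0) at 48 and 96 h, with a line joining the libraries of a population. Lines of Acp76A, Spn77Bb, Acp26Aa, Acp36DE, Est-6, Obp56e and Hr38 slope down, those of CR43086, CG5397 and Cyp9c1 slope up, and those of SP cross. The falls of msopa did not pass the test.

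Calls were mixed among secondary cell and duct genes. Of 9 secondary cell genes 3 fell, 1 rose and 5 did not pass (median -0.08). The lectin gene lectin-46Ca stood at 426, 417 and 368 CPM at 48 h and at 399, 388 and 354 CPM at 96 h (-0.08 ± 0.03, adjusted p = 0.1), with overlap between the ages. CG17575, a network gene made in these cells, fell 1.13-fold (-0.17 ± 0.04, adjusted p = 0.0223), and Bbd rose 1.36-fold (0.44 ± 0.04, adjusted p = 1.12e-05). Of 11 ejaculatory duct and bulb genes 4 fell, 1 rose and 6 did not pass (median -0.61), and without the block 0 passed in edgeR. Est-6, the secreted esterase of the duct, stood at 3696, 2603 and 3340 CPM at 48 h and at 1749, 1154 and 1691 CPM at 96 h. It fell 2.11-fold (-1.08 ± 0.04, adjusted p = 3.43e-10, and 0.0719 without the block), and population 2 was lowest at either age. Est-6 overlaps thoc6 on the other strand. Dup99B, a duct peptide gene related to sex peptide, went from 1333, 1314 and 1304 CPM to 1062, 727 and 830 CPM. Its ages did not overlap, but the change of -0.61 ± 0.14 missed the threshold (adjusted p = 0.136).

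Small secreted genes outside the gland's best-known proteins fell steeply as well. Obp56e, an odorant-binding protein gene expressed in the tract, stood at 145, 187 and 196 CPM at 48 h and at 25.8, 28.3 and 38.2 CPM at 96 h. It fell 5.74-fold (-2.52 ± 0.07, adjusted p = 5.59e-07), and it overlaps asRNA:CR44509 on the other strand. Next to it Obp56f fell 1.62-fold (-0.69 ± 0.03), Obp58b fell 3.51-fold (-1.81 ± 0.12), and Obp99b fell 9.62-fold (-3.27 ± 0.17). Obp99b went from 11.8, 6.88 and 16.1 CPM to 0.948, 0.517 and 2.28 CPM, so the ages were apart at a low level. Without the block Obp99b missed the threshold (adjusted p = 0.063). Over the family 27 of 51 genes were tested, of which 8 fell and 1 rose, with a median of -0.10, and without the block 3 fell and 0 rose.

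The neighbours msopa and Sfp79B on 3L moved together in size but lay on either side of the threshold. The gene msopa (FBgn0004414, at 22082720 to 22083367), expressed in males, went from 1066, 1227 and 1079 CPM to 230, 111 and 168 CPM. No 96 h value came near a 48 h value, yet the ratio differed between populations, and the change of -2.78 ± 0.37 missed the threshold (adjusted p = 0.0774). It passed in DESeq2 (adjusted p = 9.76e-13), without robust estimation (adjusted p = 3.34e-05) and without the block (adjusted p = 0.0146), and missed in the other alternatives. Sfp79B (FBgn0259973, 3L, 22080322 to 22080554) went from 26.4, 56.4 and 40.6 CPM to 5.10, 5.22 and 7.32 CPM, a fall of 6.77-fold (-2.76 ± 0.30) just inside the threshold (adjusted p = 0.0492). With population 1 or 3 left out, with each other scaling and without the filter on low counts it missed.

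The machinery of secretion fell with its products. Of 34 tested genes of ER translocation and folding 23 fell and 0 rose (median -0.21), and 24 of the 33 tested genes for COPI and COPII vesicles and the Golgi fell and 0 rose (median -0.29). The changes were small and even. The COPI coat gene alphaCOP stood at 200, 191 and 188 CPM at 48 h and at 147, 148 and 138 CPM at 96 h, a fall of 1.34-fold (-0.42 ± 0.03, adjusted p = 6.38e-07). The populations differed far less than the ages did. Sec24CD, a cargo adaptor of COPII vesicles, fell 1.36-fold (-0.44 ± 0.03), Grasp65, a Golgi stacking protein gene, 1.36-fold (-0.45 ± 0.04), and KdelR, which returns escaped ER proteins, had a log2 change of -0.38 ± 0.03 (adjusted p = 1.17e-06).

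Inside the ER, the signal peptidase subunit gene twr fell 1.41-fold (-0.49 ± 0.03) and the oligosaccharyltransferase subunit gene Ostgamma 1.33-fold (-0.41 ± 0.04). The chaperone genes Hsc70-3 (log2 change -0.36 ± 0.04) and Gp93 (-0.33 ± 0.03) fell too. Sec24CD, twr and Ostgamma overlap another gene on the other strand. Of 11 genes of the unfolded protein response 3 fell and 0 rose (median -0.06). With each population left out, 19 to 21 folding genes and 22 to 24 traffic genes fell, and without the block 12 and 17 did. In whole tissue, fewer secretory cells and less RNA per cell cannot be told apart. The 4 main cell markers, SP, Acp26Aa, Acp36DE and Mst57Da, together took 1.23% to 1.46% of counts at 96 h against 2.06% to 2.1% at 48 h. Of these, 3 are among the falls given above and SP was not called, so their sum is no separate measure of cell number. The testis germline markers stood at 0.500% to 0.546% against 0.485% to 0.528%. The part of cell proportions in these falls was not tested.

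**Figure D3:**
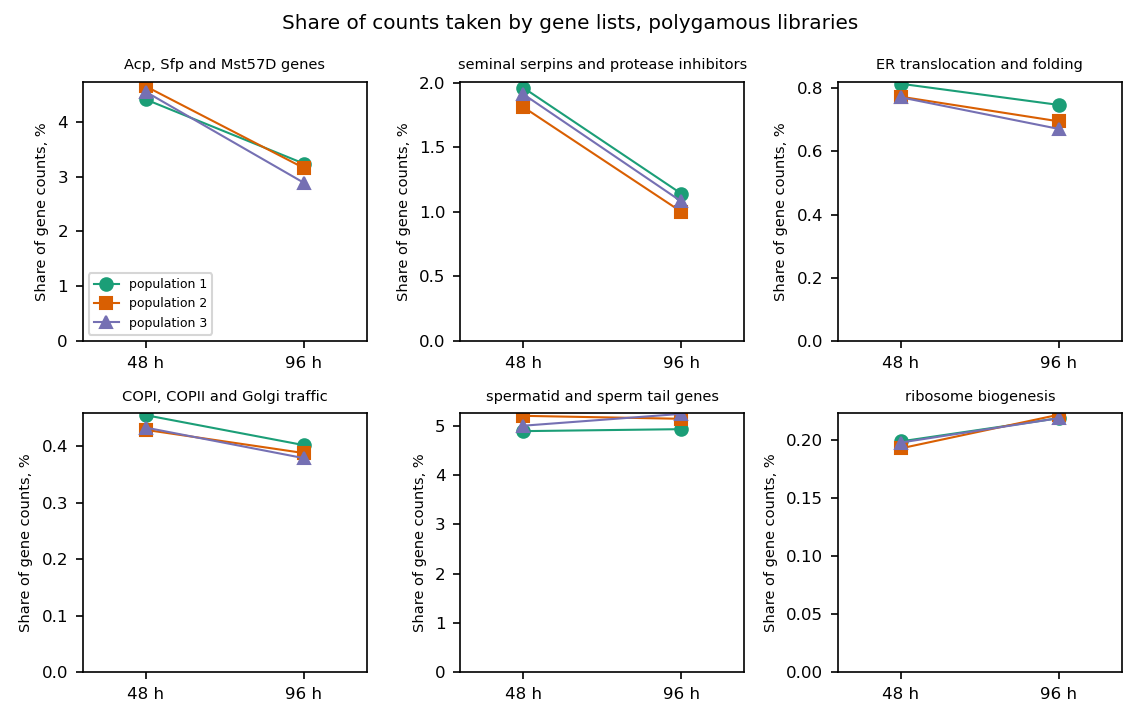
Share of gene counts (%, vertical axes from 0) taken by 6 lists in each polygamous library at 48 and 96 h, with a line for each population. Shares of the Acp, Sfp and Mst57D genes, the serpins and both secretory lists were lower at 96 h in each population, that of ribosome biogenesis was higher, and that of spermatid genes overlapped.

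Part of the genes of energy metabolism fell by small steps. Of 91 genes of oxidative phosphorylation 29 fell, 2 rose and 60 did not pass (median -0.07), and of 38 genes of glycolysis and the TCA cycle 12 fell, 0 rose and 26 did not pass (median -0.08). The summed share of counts did not follow these falls. It went from 0.805% ± 0.00505 to 0.811% ± 0.00855 for the first list and from 0.864% ± 0.0157 to 0.874% ± 0.00822 for the second (SD, n = 3), and was higher at 96 h in 2 of 3 populations for each. COX7C, a subunit of cytochrome c oxidase, stood at 35.6, 34.7 and 36.2 CPM at 48 h and at 24.8, 26.7 and 26.3 CPM at 96 h, a fall of 1.37-fold (-0.45 ± 0.05, adjusted p = 2.55e-05). Mdh2, the mitochondrial malate dehydrogenase gene, fell 1.36-fold (-0.44 ± 0.05). The pair that rose were ATPsynbetaL (1.22-fold, 0.29 ± 0.05) and ATPsynCF6L (1.18-fold, 0.24 ± 0.05), paralogues of ATP synthase subunit genes. COX7C overlaps oys on the other strand. Between 10 and 21 oxidative phosphorylation genes and 2 to 10 of the second list fell when a population was left out, and without the block 7 and 2 fell.

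Of 14 transcripts of the mitochondrial genome 5 fell and 1 rose (median -0.12). The ribosomal RNA mt:lrRNA, among the most abundant transcripts of the tract, stood at 10284, 10486 and 9536 CPM at 48 h and at 8480, 8345 and 8661 CPM at 96 h (1.19-fold, -0.25 ± 0.04, adjusted p = 0.00129). With a population left out, 1 to 5 of the 14 fell and 0 to 2 rose.

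Spermatocyte and meiotic regulators were the testis lists with the most rises. Of 18 genes of the tTAF and tMAC complexes, which switch on the spermatocyte programme, 5 rose and 0 fell (median 0.17), and of 20 meiosis and spermatocyte cell cycle genes 7 rose and 1 fell (median 0.11). The tTAF gene can stood at 29.4, 31.9 and 30.4 CPM at 48 h and at 34.6, 36.8 and 35.5 CPM at 96 h, a rise of 1.17-fold (0.22 ± 0.05, adjusted p = 0.00628). Its ages did not overlap. The tTAF gene sa rose 1.18-fold (0.24 ± 0.05), with overlap between the ages, and aly of the tMAC complex 1.15-fold (0.20 ± 0.06, adjusted p = 0.0384). CycB, the mitotic and meiotic cyclin B gene, stood at 157, 151 and 155 CPM at 48 h and at 197, 178 and 176 CPM at 96 h, a rise of 1.19-fold (0.25 ± 0.04, adjusted p = 0.00022). The kinase gene polo rose 1.15-fold (0.20 ± 0.03), and twe, the Cdc25 phosphatase gene of meiosis, rose 1.15-fold (0.20 ± 0.04). The gene twe overlaps EndoGI on the other strand.

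These rises depended on the fit. Without the block or in DESeq2 0 of the 18 regulators passed, and 0 to 5 passed with a population left out. Of the meiotic list 3 rose without the block, 3 in DESeq2 and 3 to 6 with a population left out.

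The other germ cell lists had medians of -0.05 to 0.07, and single members moved more. Of 44 spermatid and sperm tail genes 1 rose and 5 fell (median -0.04), and with upper-quartile scaling 1 rose and 0 fell. The riser, fzo, encodes the mitofusin of spermatids and went from 196, 198 and 206 CPM to 232, 226 and 239 CPM, 1.16-fold (0.22 ± 0.03, adjusted p = 0.000244). Mst98Ca, a sperm tail protein gene, fell 1.09-fold (-0.13 ± 0.04, adjusted p = 0.0304). The testis tubulin gene betaTub85D stood at 2653 ± 73.0 CPM at 48 h and 2587 ± 135 CPM at 96 h (SD, n = 3; -0.04 ± 0.04, adjusted p = 0.581), and Mst87F gave -0.08 ± 0.04 (adjusted p = 0.145). Of 18 genes of germline stem cells and spermatogonia 1 rose and 2 fell, and the differentiation gene bam gave 0.01 ± 0.14 (adjusted p = 0.964). Of 12 Y-linked fertility genes 3 fell and 0 rose, among them the dynein heavy chain genes kl-3 (1.24-fold, -0.31 ± 0.05) and kl-5 (1.23-fold, -0.30 ± 0.06). Of 15 testis proteasome subunit genes 4 rose and 0 fell (median 0.01), and without the block 0 passed.

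Apart from the lists of germ cell and testis genes, ribosome biogenesis was the list with the largest share of rises. Of 36 genes 10 rose and 0 fell (median 0.17). Polr1B, a subunit gene of RNA polymerase I, stood at 5.06, 5.89 and 5.73 CPM at 48 h and at 6.61, 7.92 and 7.14 CPM at 96 h (0.38 ± 0.09, adjusted p = 0.0114), with no overlap. Gar1, of the small nucleolar RNA-guided pseudouridylation complex, rose 1.33-fold (0.42 ± 0.09, adjusted p = 0.00375) and Nop60B, the pseudouridine synthase gene, 1.19-fold (0.25 ± 0.06). Nop60B hosts small nucleolar RNAs on its own strand. Without the block 0 of the 36 passed, in DESeq2 1 did, and 1 to 7 did with a population left out. Of 85 cytosolic ribosomal protein genes 5 rose and 3 fell (median 0.01), and of 70 mitochondrial ones 1 rose and 0 fell.

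**Figure D4:**
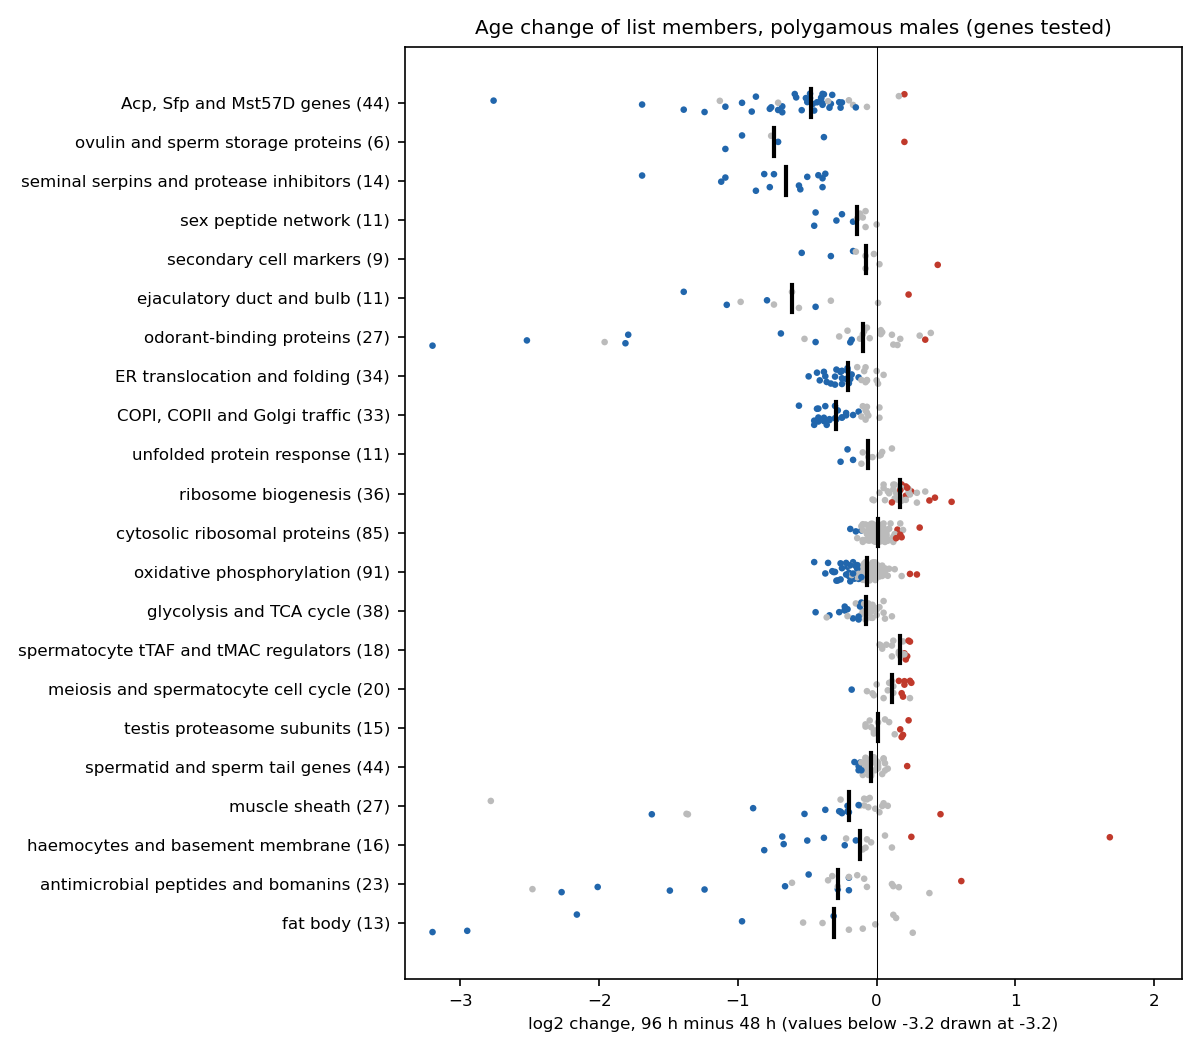
Log2 change from 48 to 96 h of each tested member of 22 lists (points, red where called upward, blue where called downward, grey where not called), with the median as a black bar and the number tested in brackets. The serpins and most members of the secretory lists lie left of 0, with medians of -0.65, -0.21 and -0.29, and most ribosome biogenesis and tTAF and tMAC genes lie right of it, each with a median of 0.17.

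At a mean of at least 5 CPM over the 6 libraries, the largest called rises came from genes of low level. Below that mean asRNA:CR45384 rose 9.12-fold, the largest rise of all tested genes, and is given with the runs below. CR43086 (FBgn0262532, 3L, 17868740 to 17870573), annotated as a pseudogene, stood at 14.4, 5.09 and 9.54 CPM at 48 h and at 60.5, 26.2 and 29.8 CPM at 96 h. It rose 4.02-fold (2.01 ± 0.13, adjusted p = 0.000766), population 1 was highest at either age, and without the block it missed the threshold (adjusted p = 0.145). PPO2, a prophenoloxidase gene of crystal cells, rose 3.21-fold (1.68 ± 0.20, adjusted p = 0.00599), from 3.09 ± 0.714 to 9.94 ± 1.96 CPM (SD, n = 3). CG5397 stood at 3.21, 2.92 and 3.31 CPM at 48 h and at 8.29, 7.16 and 7.42 CPM at 96 h, 2.42-fold (1.27 ± 0.10, adjusted p = 6.38e-07). CG3690 rose 2.48-fold (1.31 ± 0.14), lncRNA:CR44481 2.42-fold (1.28 ± 0.11), CG14022 1.81-fold (0.86 ± 0.08) and CG6055 1.79-fold (0.84 ± 0.09). The lipid phosphate phosphatase gene laza rose 1.76-fold (0.81 ± 0.10), CG42521 1.68-fold (0.75 ± 0.06), the juvenile hormone-inducible gene JhI-26 1.65-fold (0.72 ± 0.07) and CG8008 1.64-fold (0.72 ± 0.09). Without the block CG42521 (adjusted p = 0.181) and CG8008 (adjusted p = 0.349) missed the threshold. JhI-26 overlaps asRNA:CR43730 on the other strand.

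Among regulators and detoxification genes, single members stood out. Hr38 (FBgn0014859, 2L, 20683462 to 20714588), the nuclear receptor gene of the NR4A family, stood at 23.6, 24.7 and 22.6 CPM at 48 h and at 7.99, 8.54 and 7.5 CPM at 96 h. It fell 2.95-fold (-1.56 ± 0.07, adjusted p = 6.44e-10) and overlaps CG2617 on the other strand. Of the 24 tested hormone receptor and juvenile hormone genes 4 fell, 1 rose and 19 did not pass (median -0.04). Of 71 cytochrome P450 genes 10 fell and 3 rose. Cyp9c1 rose 1.93-fold (0.95 ± 0.06), from 10.2, 11.2 and 11.9 CPM to 19.1, 21.7 and 23.4 CPM, and Cyp4e1 fell 1.83-fold (-0.87 ± 0.05). Ugt35B1, of the glycosyltransferases that make lipophilic compounds soluble, fell 1.98-fold (-0.99 ± 0.04), from 269 ± 13.5 to 136 ± 6.4 CPM (SD, n = 3). Cyp9c1 and Cyp4e1 each overlap a gene on the other strand. Of 24 UDP-glycosyltransferase genes 4 fell and 3 rose, and of 34 glutathione transferase genes 5 fell and 2 rose. Among 23 heat shock and chaperone genes 4 rose and 1 fell, with Hsp26, Hsp68 and Hsp83 up 1.16-, 1.18- and 1.13-fold.

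Other large falls with the same direction in each population were those of CG15021 (2.79-fold, -1.48 ± 0.10), lncRNA:CR43491 (2.59-fold, -1.37 ± 0.12), lncRNA:CR43358 (2.44-fold, -1.29 ± 0.13) and CG11600 (2.44-fold, -1.29 ± 0.06). The lipase-like gene CG17097, the most abundant called gene, stood at 14857, 13628 and 14595 CPM at 48 h and at 12804, 11602 and 11398 CPM at 96 h (1.20-fold, -0.27 ± 0.04). Its neighbour CG31872 fell 1.33-fold (-0.41 ± 0.04), and S-Lap7, a leucyl aminopeptidase gene of sperm, fell 1.09-fold (-0.13 ± 0.04, adjusted p = 0.0494).

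Markers of tissues around the tract moved with age as well. Of 27 muscle genes 11 fell and 1 rose (median -0.20), and Strn-Mlck, a myosin light chain kinase gene, went from 114 ± 2.75 to 61.7 ± 3.03 CPM (SD, n = 3; 1.85-fold, -0.89 ± 0.04). Of 16 haemocyte and basement membrane genes 7 fell and 2 rose (median -0.12). The falls held the collagen IV genes Col4a1 (1.76-fold, -0.81 ± 0.11) and vkg (1.60-fold, -0.68 ± 0.06) and the laminin gene wb (1.59-fold, -0.67 ± 0.06), while the haemocyte gene Hml rose 1.19-fold (0.25 ± 0.08). The muscle markers took 0.0794% to 0.0996% of counts at 48 h and 0.0782% to 0.0835% at 96 h. Strn-Mlck overlaps Cyp4aa1 on the other strand.

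Of 13 fat body genes tested 5 fell and 0 rose (median -0.31). Fbp1, a larval serum protein receptor gene, had 40, 17 and 165 reads at 48 h and 0, 0 and 1 at 96 h, and Fbp2, which overlaps CG42847 on the same strand, had 41, 6 and 104 against 7, 3 and 11. The yolk protein gene Yp1 was at 0 in all 6 libraries. The whole fat body list took 0.0275%, 0.0275% and 0.0248% of counts at 48 h and 0.0204%, 0.0399% and 0.0239% at 96 h, so its share was higher at 96 h in population 2 and lower in the others. Without the block 0 of the 13 fat body genes passed in edgeR. Of 23 antimicrobial peptide and bomanin genes 9 fell and 1 rose (median -0.28), with CecA1 down 1.41-fold (-0.49 ± 0.07) and AttC up 1.52-fold (0.61 ± 0.09). Of 13 neuron genes 0 passed in edgeR or DESeq2, and leaving out population 2 called 1. Without the block 2 muscle genes, 4 haemocyte and basement membrane genes and 1 antimicrobial peptide gene fell. The part of carried-over tissue in any of these results was not tested.

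The remaining lists held small numbers of calls. Their shares lay above those over all genes (6.04% up and 8.86% down) in some lists and below them in others. Of 11 gut enzyme genes, nearly all at a few CPM or less, 2 rose and 2 fell (median -0.72, and 0.48 among those with at least 1 CPM in 3 libraries). The amylase gene Amy-p went from 1.59 ± 0.951 to 4.04 ± 3.42 CPM (SD, n = 3). Its ages overlapped, and population 1 was highest at either age. Without the block 0 gut enzyme genes passed in edgeR (adjusted p = 0.434 for Amy-p). Of 14 tubule genes 1 fell and 0 rose, and of 34 cuticular protein genes 3 rose and 1 fell. Of 14 somatic testis genes 1 rose and 0 fell, and of 19 aminoacyl-tRNA synthetase genes 1 rose and 2 fell. Of 22 insulin and TOR genes 2 rose and 1 fell, and of 11 clock genes 1 rose and 1 fell. Of 31 cytosolic proteasome genes 4 fell and 0 rose, of 28 DNA replication genes 3 rose and 0 fell, and of 25 iron and antioxidant genes 2 fell and 0 rose. The globin gene glob1 fell 1.69-fold (-0.76 ± 0.11, adjusted p = 0.0172), and the other 2 globin genes did not pass.

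Whether the age change of polygamous males differed from that of monogamous males was asked with the regime by age term over all 12 libraries. In edgeR 0 of 13156 genes passed, 681 had an unadjusted p under 0.05 (5.18%), and DESeq2 called 1. Monogamous population 1 differed from the rest at 48 h, with 1.69% of its counts in Acp, Sfp and Mst57D genes against 3.51% to 4.65% in the 5 other libraries of that age. Leaving that population out, 110 of 13226 genes passed (0.832%), and 105 of them had a lower change in polygamous males. Leaving out monogamous population 2 gave 4, and leaving out monogamous population 3 or any polygamous population gave 0.

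The 110 genes held seminal fluid genes. Without monogamous population 1, the difference was called for 14 of the 44 Acp, Sfp and Mst57D genes of the age test. It was also called for 8 of the 11 sex peptide network genes. Mst57Da had a difference of -0.37 ± 0.06 (edgeR adjusted p = 0.0156), and aqrs had -0.27 ± 0.05 (adjusted p = 0.0279). For Acp26Aa the difference was -0.42 ± 0.08 (adjusted p = 0.0658) and for Acp76A -0.38 ± 0.09 (adjusted p = 0.157), so neither was called. CG14022, among the largest rises at a mean of at least 5 CPM, had a difference of -0.74 ± 0.13 (adjusted p = 0.0178). The median age change of the Acp, Sfp and Mst57D genes was -0.47 in polygamous males, 0.18 in all monogamous populations and -0.13 in monogamous populations 2 and 3. For the sex peptide network the medians were -0.14, 0.56 and 0.19. These calls rest on leaving 1 population out. That population was set apart by its low 48 h share of the same Acp, Sfp and Mst57D genes. The calls are therefore no separate evidence that the regimes differ in these genes.

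**Figure D5:**
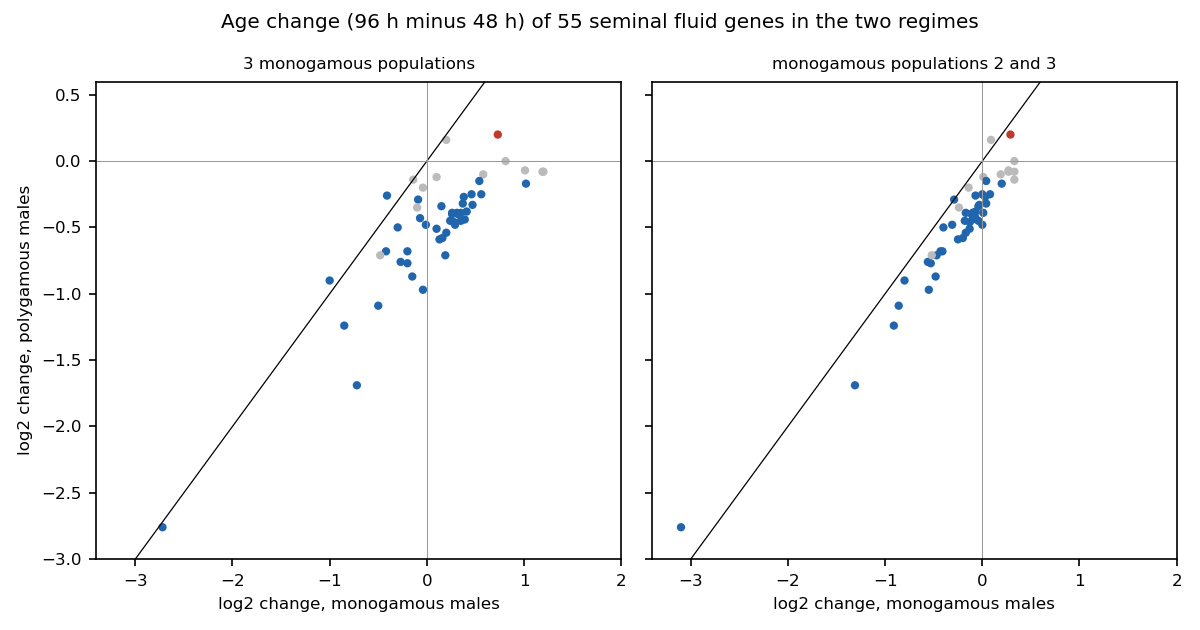
Log2 change from 48 to 96 h of 55 genes in polygamous males (vertical axis) against monogamous males (horizontal axis). The genes are the tested members of the Acp, Sfp and Mst57D list and of the sex peptide network list, whose members need not all be seminal fluid genes. All 3 monogamous populations are on the left, and populations 2 and 3 on the right. Blue, red and grey mark falls, rises and genes not called in polygamous males, and the black line marks equal change. In each panel 52 of the 55 points lie below the line.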

How the data were processed

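The authors deposited 1 table of raw read counts for each library, made with Trimmomatic 0.33, TopHat2 2.1.0 and HTSeq 0.6.1 on build BDGP6, per the submitters' processing notes. Annotation release, strand setting and counting mode are not given in the sources used here. Counts of overlapping genes are therefore uncertain, which the text gives beside the gene or, for Hsp68, Hsp83, AttC, Mst87F and bam, which overlap genes on the other strand, here. Each table listed 17559 genes, 17253 with a symbol in the Ensembl BDGP6.54 annotation, the source of all coordinates. Summary lines were left out of library sizes and tests. In each library 3 counts were worth 0.0739 to 0.0956 CPM.

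Counts of the 6 polygamous libraries were tested with edgeR 4.0.16 (R 4.3.3: TMM, filterByExpr, robust quasi-likelihood F test, population and age as terms), with Benjamini-Hochberg adjustment over all 12805 genes and a threshold of 0.05. SE is that of the log2 change, computed as its size divided by the square root of the F statistic. The p-value also depends on the degrees of freedom of a gene, so equal ratios of change to SE can have different p-values. A ± after a CPM value is the SD over populations. The difference between regimes used all 12 libraries with 6 populations as block. DESeq2 1.42.0 was an alternative. Populations were paired because both ages come from 1 evolving line. Deviations from the mean of each age correlated at 0.530, 0.435 and 0.583 for same-numbered libraries. Those of different-numbered libraries correlated at -0.182 to -0.368. Taking deviations from the mean pulls these last values below 0, so they are no separate evidence for the pairing. No replicates were identical. Their chi-square per degree of freedom was 11.6 to 17.1 for polygamous pairs and 22.1 to 190.1 for monogamous pairs. Values of 123.2 and 190.1 came from pairs with monogamous population 1 at 48 h.

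On simulated counts the age test recovered 64%, 90%, 98% and 100% of changes of 1.25-, 1.5-, 2- and 4-fold, with 11 false calls among 12711 genes. The difference test recovered 2%, 22%, 84% and 98%, with 15 among 13068. Only genes with a mean of at least 100 reads were given a change. Counts were drawn with the spread fitted with the population block, and no line was given an age change of its own. Recovery at low counts, and false calls where lines differ in age change or the spread is larger, were therefore not tested.

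The comparison and the gene lists were chosen with earlier results of these data known. Lists are described by counts and medians without a test. Named genes were the 12 largest called rises and falls at a mean of at least 5 CPM and the same sign in all 3 populations, up to 4 called members of a list in each direction by p, a panel of tract genes, the 5 called genes of highest mean, and genes of the difference. Some neighbours and members outside this rule were chosen after their values were seen.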

Additional observations from a re-analysis of the deposited data

How the results depend on the processing

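No named gene that was called turned its direction under an alternative. Of those not called, SP went from -0.12 to 0.02 and bam from 0.01 to -0.18 without population 2. Of the count of 1907 age calls (773 up, 1134 down), the fit without the replicate block gave 485 (100 up, 385 down), the spread of 12 libraries with the block 42 (14 up, 28 down) and DESeq2 879 (237 up, 642 down). Leaving out 1 population at a time gave 1036 to 1479, with 363 to 554 up and 673 to 925 down. Other scalings, filters and the fit without robust estimation gave 1586 to 2047. With scaling on testis genes the median over all genes was 0.02, with 825 up and 946 down. Of 197 named genes 189 were called, and 102 kept the call whichever population was left out. In the pairing by population, without the block 114 named genes lost their call and 1 gained it, 14 of the lost with a log2 change of at least 1 in size, and with the spread of 12 libraries 172 lost it. The cause was not tested. For the difference between regimes, with 0 calls in edgeR over all libraries, no filter on low counts gave 1, DESeq2 gave 1, leaving out 1 monogamous or polygamous population gave 0 to 110, and RLE scaling or no block gave 0. With 3 pools a side, low-count genes near 3 reads are limited by counting error.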

Other observations

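Some called genes lay close together. Runs were listed where at least 3 called genes moved at least 1.5-fold in the same direction. Each started at most 20 kb after the end of the one before, so that a run may be wider. Genes between them that were not called or moved less than 1.5-fold were passed over, so members need not be adjacent. The rule was set after the values were seen. There were 11 such runs, and they are given without a test of whether neighbours move together more often than other genes.

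On 2L, from 3692699 to 3713105, 7 genes fell, among them IM33, an immune-induced peptide gene, and the seminal fluid gene Sfp24C1. Sfp24C1 stood at 96.7, 102 and 100 CPM at 48 h and at 57.2, 58.5 and 60.5 CPM at 96 h. CG42465, which lies just before it, fell 2.07-fold (log2 change -1.05 ± 0.06, SE). On 2L, from 18291253 to 18294056, Sfp36F fell 2.36-fold (-1.24 ± 0.07) between CG43362 and lncRNA:CR43358. On 3R, from 21735909 to 21739110, Sfp93F, CG42869 and CG34034 fell 1.52- to 1.87-fold.

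On 3R, from 10064007 to 10068572, the genes CG33631, CG33783 and CG33784 fell 2.58- to 5.40-fold, and population 2 was low at both ages. CG33783 stood at 15.3, 3.54 and 20.2 CPM in populations 1, 2 and 3 at 48 h and at 6.61, 0.844 and 7.04 CPM at 96 h. Its ages overlapped because the lines differed, while it fell in each line (-1.47 ± 0.12, edgeR adjusted p = 7.73e-06, and 0.542 without the block). On 2R, the bomanin genes BomS2, BomS3, BomT2 and BomS6 fell 2.37- to 4.81-fold, at means of at most 2.61 CPM.

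A run on 3L, from 20836112 to 20838839, held the steepest rise of all runs. The antisense RNA gene asRNA:CR45384 stood at 1.02, 0.625 and 0.930 CPM at 48 h and at 6.29, 7.73 and 9.62 CPM at 96 h. It rose 9.12-fold (3.19 ± 0.17, edgeR adjusted p = 5.1e-08). Next to it CG13255 rose 1.52-fold (0.60 ± 0.05), from 55.8 ± 3.61 to 84.9 ± 4.26 CPM (SD, n = 3). The antisense RNA gene asRNA:CR45943 lies inside CG13255 on the other strand and rose 1.69-fold (0.76 ± 0.22, adjusted p = 0.0283), so reads of these last genes cannot be told apart without the strand setting.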
